A study of Mus musculus with 20 samples.

Results

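The axon guidance ligands and receptors measured in this study of prenatal cocaine exposure were the mouse semaphorins of classes 3 to 7, the plexins and neuropilins that bind them, the ephrins and their Eph receptors, the Slits and Robos, and the netrins with their receptors Dcc and Unc5. They were chosen by gene symbol, as every array probe whose single symbol falls in these families, which gave 69 probes for 63 genes among 22575 probes. The rule itself used no measured values, but it was set with earlier results of these data known. Ligands made up 37 probes of 33 genes and receptors 32 probes of 30 genes. All 69 probes were measured well enough to be tested. The Robo2, Slit3, Sema6a, Sema6d, Efna5 and Plxna2 genes had 2 probes each, which are told apart below by the accession the array gives for the probe.

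Timed pregnant Swiss Webster (CFW) mice, an outbred stock, had been injected under the skin 2 times a day with cocaine hydrochloride at 20 mg/kg or with saline from embryonic day 8 to embryonic day 18, and the saline dams were pair-fed. The fetal frontal and fetal occipital groups held the cerebral wall in front of the striatum or behind the hippocampus, taken at embryonic day 18, 1 h after the last injection, with 2 fetuses pooled per channel. Adult frontal and adult occipital groups held the same regions of offspring at postnatal day 30, and the number of adult animals per array is not stated. Each of the 4 groups had 5 arrays, 20 in all, and every array set cocaine-exposed RNA in channel 1 against saline RNA in channel 2. Slides of a region came from separate litters. No label ties frontal and occipital tissue to the same animals, and none gives the sex of the animals.

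Axon guidance molecules steer the growth cone, the motile tip of an axon. Semaphorins signal through plexins, with neuropilins as the binding partners of most class 3 semaphorins, and mostly repel axons. Ephrins are bound to the membrane and signal in both directions with Eph receptors at cell contacts, Slits repel axons through Robo receptors, and netrins attract axons through Dcc and repel them through Unc5 receptors. In the cortex many of these genes stay active after birth, when they take part in synapse formation and in blood vessels.

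The deposited values are log2 ratios, and the labels make cocaine over saline the likely direction without stating it. A ratio of 1.00 is thus a 2-fold higher channel 1 signal. Every array was centred on its own median, so higher and lower mean relative to the typical probe of that array. Dyes were not swapped on any array, so a fixed dye difference of a probe cannot be told apart from a treatment effect in a group mean, whereas it cancels in differences between groups. Ratios hold no levels, so neither the abundance of these transcripts nor the cortical identity of the tissue against its markers was checked. In such bulk tissue fewer cells of a type and less RNA per cell cannot be told apart. A probe was called when its group mean differed from 0 at an adjusted p under 0.05 in a limma model of all 20 arrays and 22567 probes. Each SE is that of this model, from 1 moderated spread per probe over all groups. It is therefore the same in every group for a member and does not show the spread of a single group.

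Some arrays need a remark before the results. Channel 1 of the first fetal frontal array is labelled with both dyes, and its direction is therefore less sure. Over the 69 probes its correlation with the other fetal frontal arrays ran from 0.111 to 0.554, and all were positive. A pair of fetal occipital arrays carries the same title number and is called replicates 1 and 1b here. Their correlation over the 69 probes was only 0.214, which makes them different measurements. Between all 190 pairs of arrays the correlation over the members ran from -0.126 to 0.81, with a median of 0.5.

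Axon guidance probes were called in every group, in both directions, and not more often than probes at large. In fetal frontal cortex 12 were higher, 7 were lower and 50 did not pass, so 27.5% were called against 37.0% of all probes (18.7% higher and 18.4% lower). In fetal occipital cortex 11 were higher and 6 lower, 24.6% against 24.7% of all probes (10.5% higher and 14.2% lower). Adult frontal cortex had 15 higher and 16 lower, 44.9% against 56.1% (26.8% higher and 29.4% lower). Adult occipital cortex had 13 higher and 17 lower, 43.5% against 48.2% (24.1% in each direction). These shares are at or below the background, so the number of calls is no property of axon guidance genes. The median ratio of the members was 0.00, -0.05, 0.20 and 0.07 in the same order of groups, beside -0.04, -0.03, -0.04 and 0.01 for all probes.

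Counts by family and by role are given as descriptions, since differences between them were not tested. Receptors had 5 higher and 0 lower in fetal occipital cortex, against 6 higher and 6 lower ligands there. In the adult groups both roles were spread over both directions, with 5 higher and 7 lower receptors in frontal and 6 and 6 in occipital cortex. Ligands had 10 higher and 9 lower in adult frontal cortex and 7 higher and 11 lower in adult occipital cortex. In fetal frontal cortex 6 receptors and 6 ligands were higher, and 4 receptors and 3 ligands were lower. Plexins were mostly higher where called, with 10 higher and 1 lower call over the 4 groups, and class 3 semaphorins mostly lower, with 2 higher and 7 lower calls, none of which passed once the brightness trend described below was removed. No Slit was called in either fetal group. Over the 4 groups 26 of 69 members were never called (37.7%, against 26.6% of all probes). No member was called in opposite directions, which was rare over all probes too (326 of 22567).

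**Figure D1:**
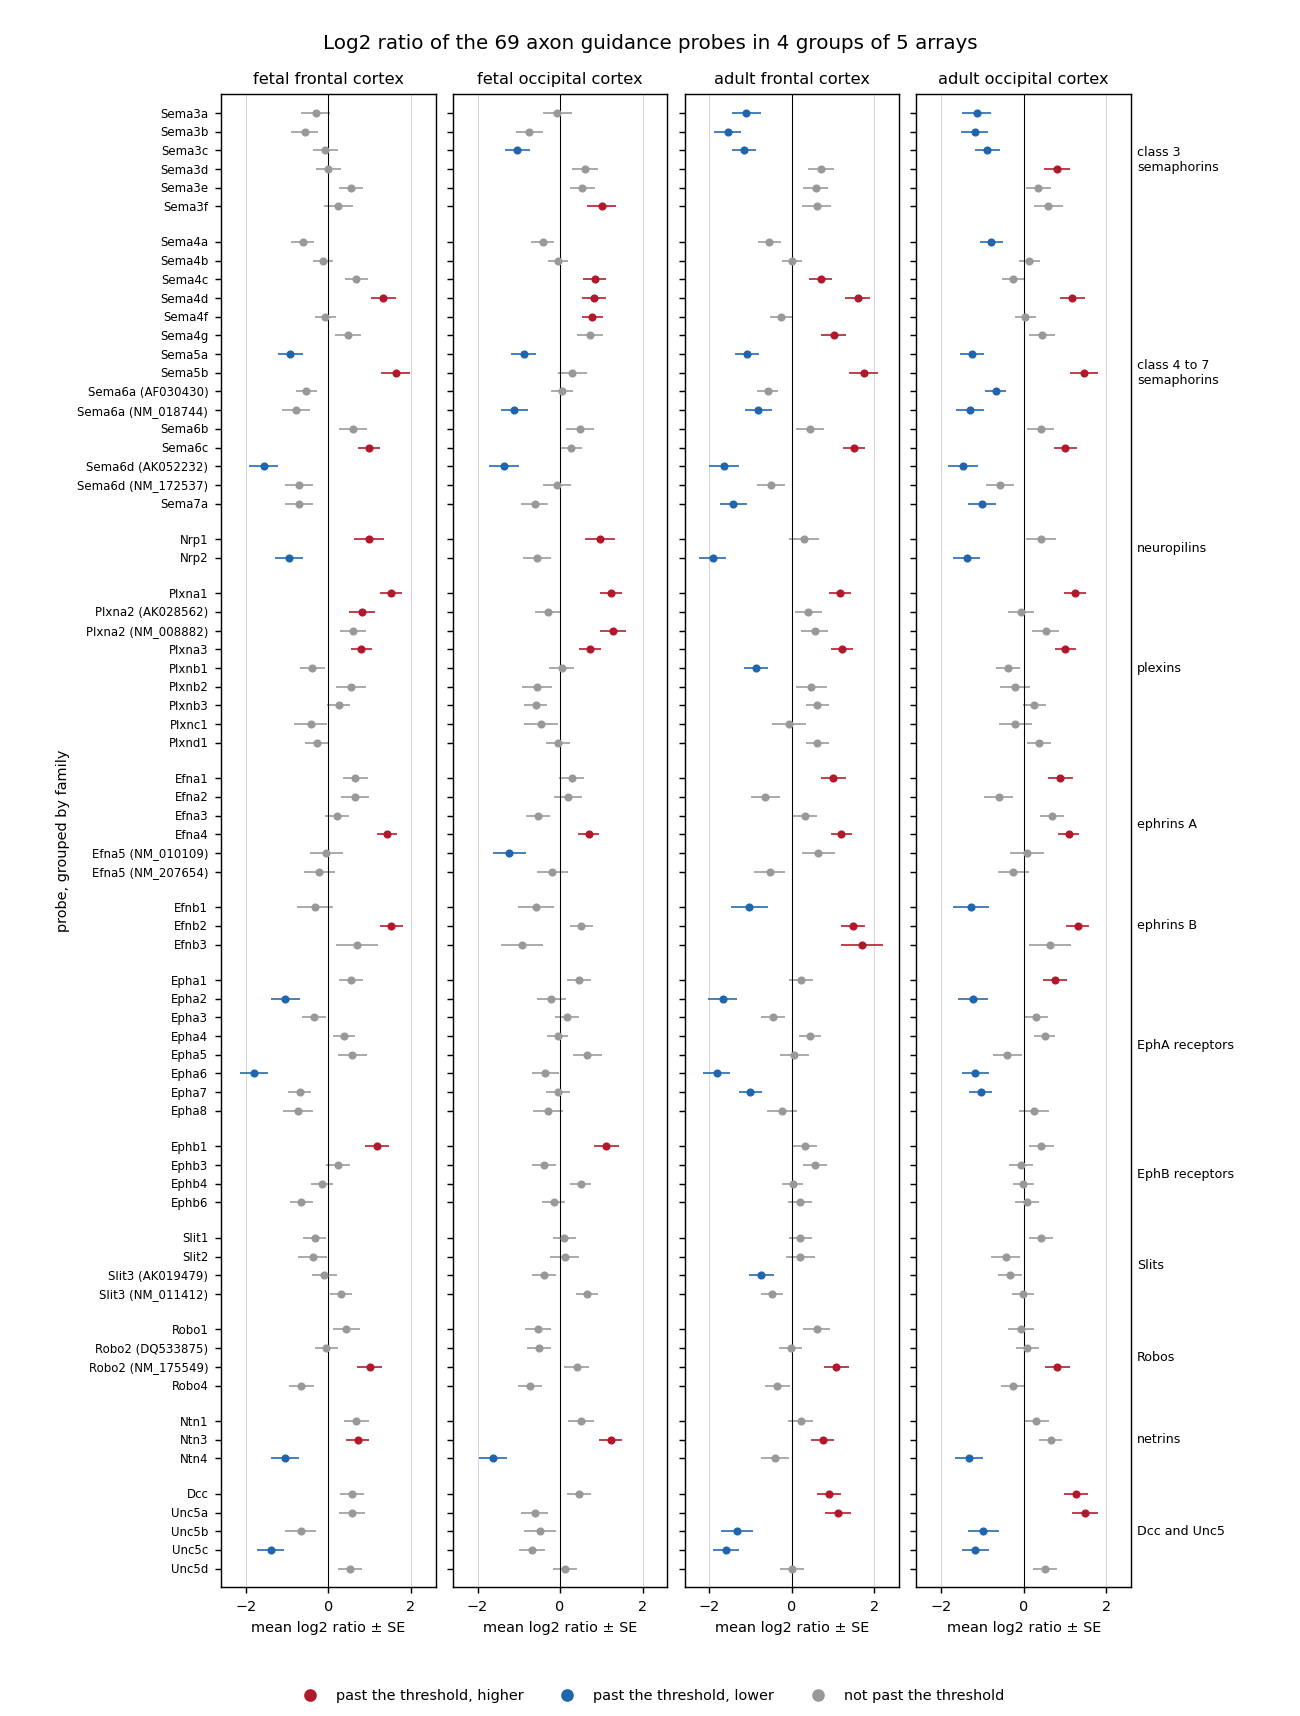
Mean log2 ratio (horizontal axis) ± SE of each of the 69 axon guidance probes, listed by family, with a panel for each group of 5 arrays. Red points were higher and blue points lower past the threshold, and grey points did not pass; Sema4d, Efna4, Plxna1 and Plxna3 are red and Sema5a and Sema6d probe AK052232 blue in all 4 panels.

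The direction of a call went with the brightness of the probe. Intensities were not analysed here, but the ratios of dim probes fall on quotients of small whole numbers, which gives each probe a relative brightness. Across the 69 members the Spearman correlation of mean ratio with brightness was 0.674 (frontal) and 0.475 (occipital) in the fetus and 0.693 (frontal) and 0.593 (occipital) in the adult. All probes showed the same relation, with 0.742, 0.507, 0.774 and 0.733. These are descriptions across probes of the same arrays. Of the 21 members in the brightest tertile of all probes, 11 were higher and 0 lower in adult frontal cortex, whereas of the 20 in the dimmest tertile 0 were higher and 12 lower. Over all probes there, 4666 of 7526 bright probes were higher and 148 lower, and 109 of 7516 dim probes were higher and 4965 lower. Fetal frontal cortex had 10 higher and 0 lower calls among the bright members and 0 higher and 5 lower among the dim ones. All bright probes had 3537 higher and 63 lower calls there, and all dim probes 44 and 3303. In fetal occipital cortex bright members had 8 higher and 1 lower (all probes 1659 and 318) and dim members 1 and 4 (107 and 1961). Adult occipital cortex had 10 and 0 among bright members (4145 and 109) and 1 and 12 among dim ones (139 and 4190). Members higher in at least 1 group had a median brightness percentile of 78.6, those lower in at least 1 group had 30.7, and those called in no group 50.6.

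**Figure D2:**
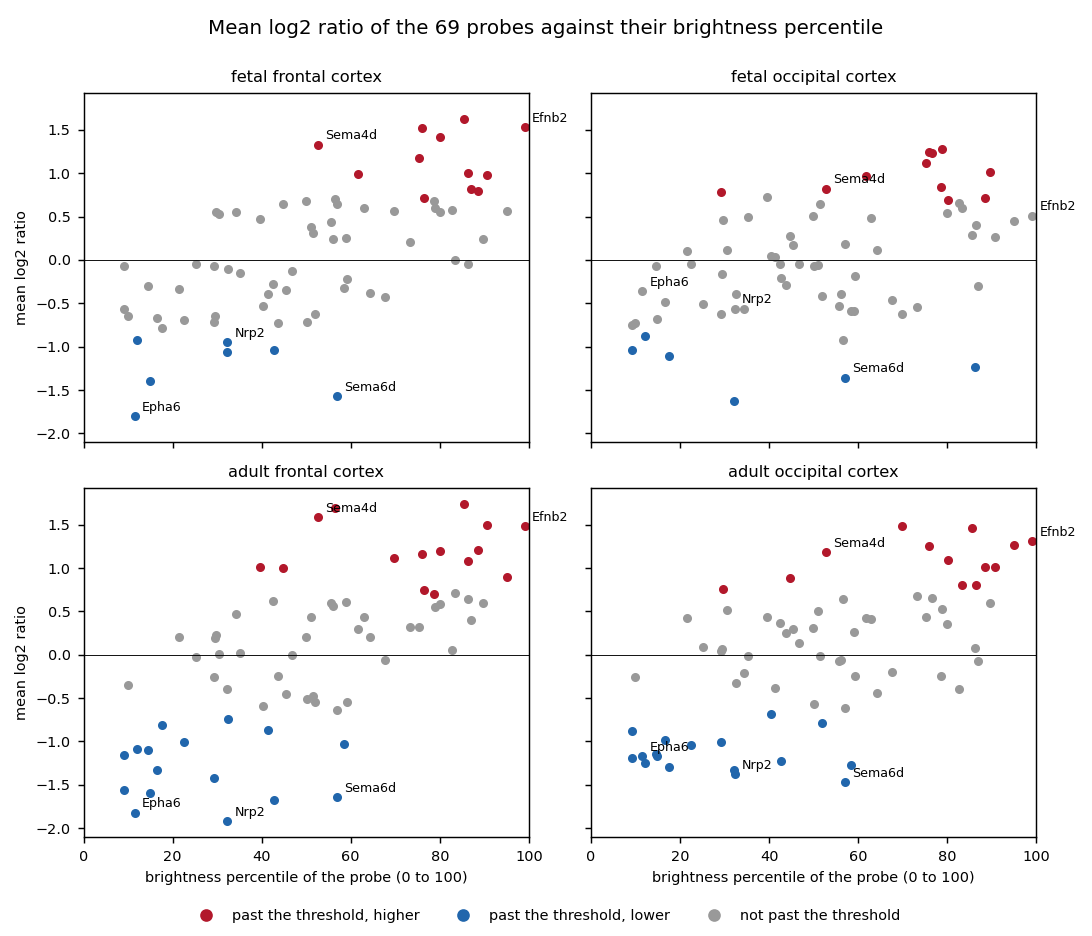
Mean log2 ratio (vertical axis) of the 69 probes against the percentile of their derived brightness (horizontal axis), with a panel for each group, with red for higher, blue for lower and grey for probes not past the threshold. Most red points lie at the right and most blue points at the left, with exceptions such as Sema4d and Sema6d near the middle of the axis and the lower Efna5 probe NM_010109 at percentile 86.2 in fetal occipital cortex.

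Each array's ratios were therefore also fitted after the trend with brightness was taken out. Calls over all probes then made up 8.37% and 16.5% in the fetal regions (frontal first) and 23.3% and 14.3% in the adult ones. Of the members' calls made before, 5 of 19, 7 of 17, 8 of 31 and 9 of 30 passed again in the same direction. With members newly past the threshold the totals were 6, 9, 14 and 13. A trend with position on the array was removed in the same way, alone and together with brightness, and 22 of all 97 member calls passed under all 3 settings. Those 22 calls belong to Sema4d (3 groups), Sema6d (4), Efnb1 (2) and, with 1 group each, Efna4, Plxna1, Epha6, Ntn3, Ntn4, Epha2, Sema4g, Efna1, Efnb3, Nrp2, Unc5a, Epha1 and Sema4a. By family, plexins had 4 higher and 0 lower calls over the 4 groups with the brightness trend removed, class 3 semaphorins had none, and EphA receptors had 3 higher and 5 lower. Whether brightness, dye or position made the other calls was not tested.

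**Figure D3:**
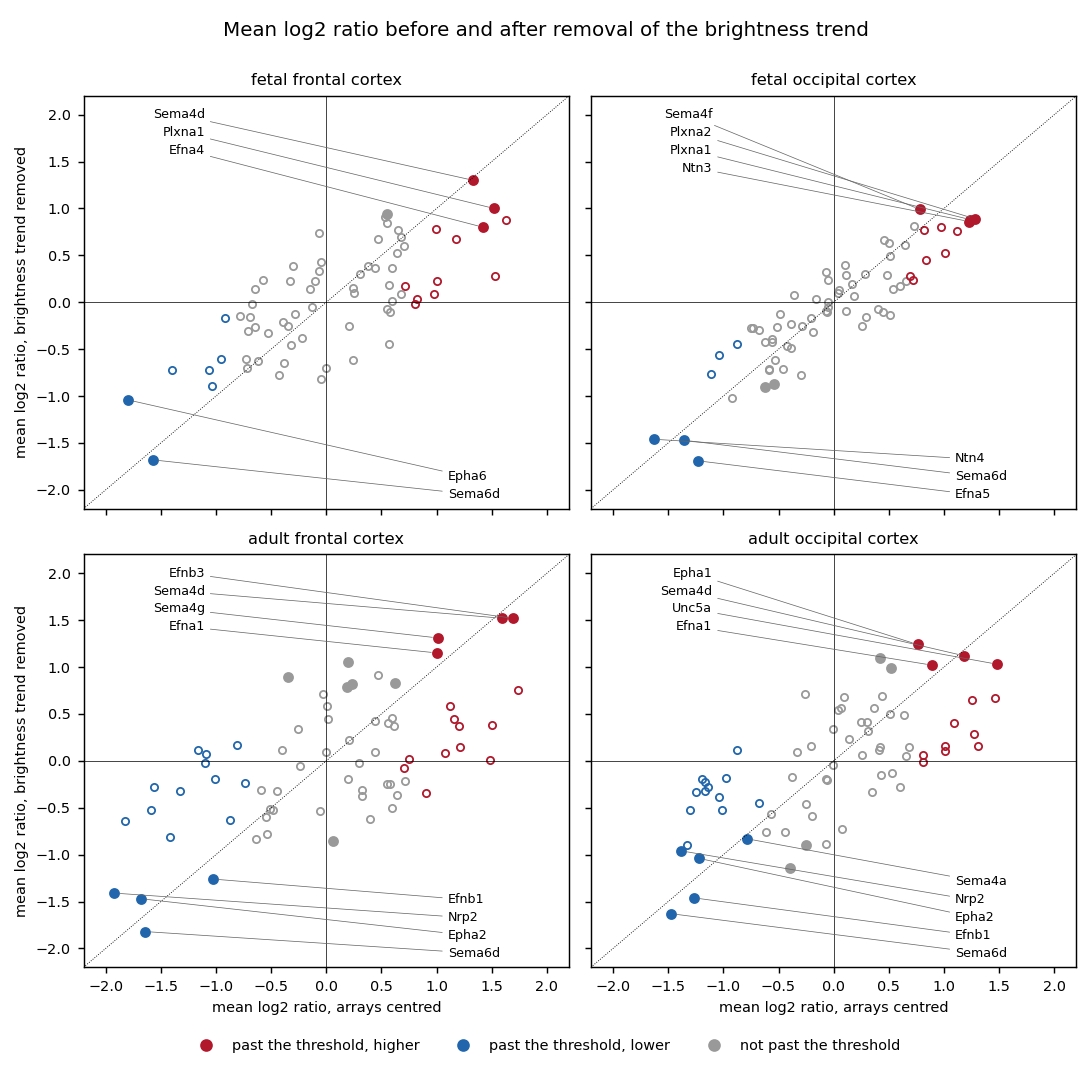
Mean log2 ratio of the 69 probes with arrays centred (horizontal axis) and with the brightness trend also removed (vertical axis), with a panel for each group. Filled points passed the threshold with the trend removed and open points did not, colour gives the call before removal, and the dotted line marks equal values; Sema4d stays near that line, and most other coloured points move towards 0.

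A small set of genes was called in the same direction in all 4 groups. Sema4d, Efna4, Plxna1 and Plxna3 were higher, and Sema5a and 1 of the 2 Sema6d probes were lower. That is 8.7% of the members, against 10.1% of all probes. Sema4d is a transmembrane semaphorin that binds plexin-B1, Efna4 is a lipid-anchored ephrin, and Plxna1 and Plxna3 are plexins that signal for class 3 semaphorins.

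Promoters of the genes that were higher in all 4 groups are shown as a description. With the brightness trend removed none of these genes passed in all 4 groups, and shared regulation was not tested. The windows are the 250 bases before and 50 after a transcription start in RefSeq (GRCm38.p6), read on the strand of the gene. Capitals mark an AP-1 motif, TGANTCA, searched on both strands, and none of these windows held the cAMP response element TGACGTCA. Plxna1 is named only.
Sema4d, chr13:51748761-51749060, minus strand: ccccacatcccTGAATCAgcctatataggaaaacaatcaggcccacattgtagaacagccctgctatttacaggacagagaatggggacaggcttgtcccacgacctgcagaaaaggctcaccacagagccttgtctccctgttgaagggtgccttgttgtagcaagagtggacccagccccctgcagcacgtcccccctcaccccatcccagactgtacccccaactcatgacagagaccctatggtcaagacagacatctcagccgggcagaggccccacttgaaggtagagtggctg
Efna4, chr3:89337979-89338278, minus strand: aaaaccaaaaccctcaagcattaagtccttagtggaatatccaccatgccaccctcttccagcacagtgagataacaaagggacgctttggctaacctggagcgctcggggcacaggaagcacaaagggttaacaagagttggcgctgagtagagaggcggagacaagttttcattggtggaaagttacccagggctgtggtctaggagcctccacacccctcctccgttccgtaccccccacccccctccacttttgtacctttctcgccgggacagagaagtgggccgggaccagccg
Plxna3, chrX:74328816-74329115, plus strand: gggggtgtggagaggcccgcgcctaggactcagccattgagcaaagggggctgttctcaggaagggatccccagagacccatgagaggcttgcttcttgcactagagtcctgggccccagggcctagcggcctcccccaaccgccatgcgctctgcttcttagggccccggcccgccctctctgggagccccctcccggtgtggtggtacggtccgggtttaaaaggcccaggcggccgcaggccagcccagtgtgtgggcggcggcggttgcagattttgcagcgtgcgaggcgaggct

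The AP-1 motif lay at base 12 of this Sema4d window, which is 1 of 3 Sema4d entries and the only one of them with a match, chosen for display for that reason. It occurs in 7.81% of 32851 RefSeq promoters of that length and in 3 of the 70 entries found for 54 of the 63 member genes, namely of Sema4c, Sema4d and Sema6b. The cAMP response element, a palindrome and so the same on both strands, occurs in 1.79% of all promoters and in 1 member entry, that of Epha2. The motifs were counted separately, and no member entry held both. Member promoters were rich in G and C, with a median of 64.3% against 52.7% for all, and held a median of 19.5 CpG dinucleotides against 7. The Plxna3 window follows this with 67.7% G and C, whereas those of Sema4d (56.0%) and Efna4 (55.7%) lie lower. A motif match is a description of these letters.

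Sema4d kept its calls under most of the processing alternatives. Its log2 ratios on the fetal frontal arrays 1 to 5 were 1.48, 2.76, 1.00, 0.88 and 0.54, and on the fetal occipital arrays 1, 1b, 3, 4 and 5 they were 0.42, 1.09, 0.15, 0.96 and 1.49. Adult frontal arrays gave 2.03, 1.47, 1.78, 0.65 and 2.01, and adult occipital arrays 1.65, 0.79, 1.23, 1.63 and 0.58. All 20 arrays lay above 0, and the groups overlapped. The means of 5 arrays each were 1.33, 0.82, 1.59 and 1.18, each ± 0.30 (SE of the model), with limma adjusted p of 0.00126, 0.0424, 7.59e-05 and 0.0025. Its brightness percentile was 52.7, and with the brightness trend removed the means were 1.30, 0.77, 1.52 and 1.12, of which the fetal occipital value no longer passed. That fetal occipital call was also lost without replicate 1b, 4 or 5, with a lowest mean of 0.65 and a highest adjusted p of 0.177.

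Efna4 and Plxna1 were high on nearly every array. Efna4 gave 1.45, 1.87, 1.21, 1.26 and 1.33 in fetal frontal and -0.10, 0.99, 0.72, 1.04 and 0.78 in fetal occipital cortex. The adult frontal arrays gave 1.58, 0.75, 1.10, 1.01 and 1.57, and the adult occipital arrays 0.93, 1.04, 1.82, 0.84 and 0.81. Only 1 of 20 arrays was below 0, and every fetal frontal array exceeded every fetal occipital array. The Efna4 means were 1.42, 0.69, 1.20 and 1.09, each ± 0.25 (SE), with adjusted p of 0.000271, 0.0432, 0.000217 and 0.00132. The fetal occipital call was lost without replicate 1b, 3, 4 or 5 (highest adjusted p 0.141). Plxna1 averaged 1.52, 1.24, 1.16 and 1.25, each ± 0.27, was above 0 on all 20 arrays (0.34 to 2.42), and passed with every single array left out. Once the brightness trend was removed, Efna4 passed only in fetal frontal cortex (0.80) and fell to 0.28, 0.37 and 0.40 elsewhere, and Plxna1 passed in the fetal groups (1.00 in frontal) and not in adult frontal (0.45) or adult occipital cortex (0.65).

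Plxna3, a receptor component for Sema3f, averaged 0.80, 0.72, 1.21 and 1.01, each ± 0.26 (SE). Its fetal values ran from 0.35 to 1.13 in frontal and from -0.35 to 1.40 in occipital cortex, and its adult values from 0.70 to 1.63 and from 0.80 to 1.39. It was below 0 on 1 of 20 arrays. The fetal calls were lost without frontal replicate 3 or 4 and without occipital replicate 1b, 3, 4 or 5 (highest adjusted p 0.065 and 0.192). Its means with the brightness trend removed were -0.02, 0.24, 0.15 and 0.16 and none passed, at a brightness percentile of 88.5.

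Sema5a and Sema6d are transmembrane semaphorins. The Sema6d probe AK052232 gave -1.15, -1.34, -1.04, -3.56 and -0.78 in fetal frontal cortex and -0.26, -3.41, -1.30, -0.54 and -1.32 in fetal occipital cortex. In the adult frontal group it gave -1.04, -2.22, -1.38, -2.08 and -1.46, and in the adult occipital group -0.99, -1.85, -1.30, -2.15 and -1.07. All 20 arrays lay below 0, and fetal frontal replicate 4 and fetal occipital replicate 1b were the lowest. The means were -1.57, -1.36, -1.64 and -1.47, each ± 0.36 (SE), with adjusted p of 0.00158, 0.00795, 0.0004 and 0.00209. Without replicate 1b the fetal occipital mean was -0.85 and did not pass (adjusted p 0.0929). Removal of the brightness trend left -1.68, -1.47, -1.82 and -1.63, all past the threshold. The second Sema6d probe, NM_172537, averaged only -0.72, -0.07, -0.51 and -0.57 and passed in no group (adjusted p 0.096, 0.905, 0.207 and 0.164). The probes of this gene thus gave different results at nearly the same brightness, 57.0 and 50.1 on the percentile scale.

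Sema5a averaged -0.92, -0.88, -1.09 and -1.25, each ± 0.30 (SE). It was above 0 only on fetal occipital replicate 3, at 0.13, and its lowest values were -1.83 (frontal) and -1.80 (occipital) in the fetus and -1.87 and -1.68 in the adult. The fetal calls were lost without frontal replicate 2 or 4 and without occipital replicate 1, 4 or 5. It is a dim probe, at percentile 12.1. Removal of the trend left means of -0.17, -0.45, 0.07 and -0.33, so the adult frontal value changed sign.

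**Figure D4:**
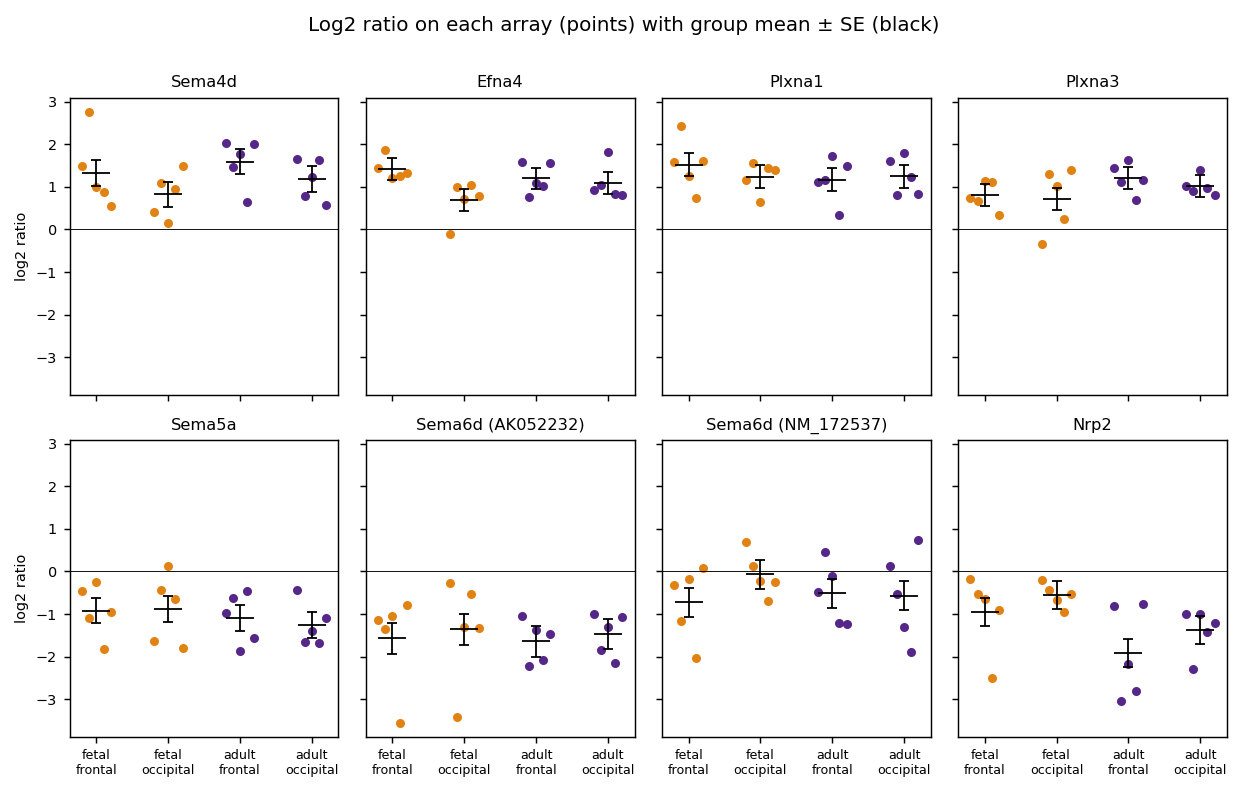
Log2 ratio on each of the 20 arrays (points) with the group mean ± SE (black) for the genes called in all 4 groups, the second Sema6d probe and Nrp2. Sema4d, Plxna1 and Sema6d probe AK052232 keep 1 sign on all 20 arrays, and the second Sema6d probe lies closer to 0.

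The secreted class 3 semaphorins had 7 lower and 2 higher calls over the 4 groups, and 0 of 6 differed between the ages (against 15.6% of all probes). None of the 6 was called in fetal frontal cortex (against 37.0% of all probes). In fetal occipital cortex Sema3f was higher and Sema3c lower (33.3%, against 24.7% of all probes). In both adult groups Sema3a, Sema3b and Sema3c were lower, and Sema3d was higher in adult occipital cortex. Sema3a, the repellent that collapses growth cones through Nrp1, averaged -1.10 (adjusted p 0.00799) in adult frontal cortex and -1.14 (0.00871) in its occipital counterpart, beside -0.30 and -0.07 in the fetal groups. Sema3e was called in no group, with means between 0.35 and 0.58.

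Sema3b gave -1.45, -1.78, -1.39, -2.45 and -0.72 in adult frontal and -0.70, -1.60, -0.60, -1.63 and -1.39 in adult occipital cortex. All 10 adult arrays were below 0, whereas the fetal arrays lay on both sides of it. The adult means were -1.56 and -1.19, each ± 0.33 (SE), with adjusted p of 0.000235 and 0.00455. Sema3c, which guides cortical axons as well as cardiac outflow, was below 0 on all 5 fetal occipital arrays (-1.73 to -0.60) and on all 10 adult arrays. Its fetal means were -0.07 in frontal and -1.04 ± 0.30 (SE) in occipital cortex, and its adult means -1.16 and -0.88. The fetal occipital call was lost without replicate 1 and the adult occipital call without replicate 2, 3 or 4. These 3 genes, Sema3a, Sema3b and Sema3c, were among the dimmest members, at percentiles 14.6, 9.1 and 9.1, and with the brightness trend removed Sema3c turned to 0.12 in both adult groups. Sema3f, the main ligand of Nrp2, gave 0.98, 0.40, 0.49, 1.98 and 1.23 in fetal occipital cortex, a mean of 1.01 ± 0.35 (adjusted p 0.0327) that was lost without replicate 1, 4 or 5.

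The semaphorins of classes 4 to 7, most of them membrane-bound, split in both directions in each group. Of 15 probes, 3 were higher and 2 lower in fetal frontal cortex, against 3 and 3 in the fetal occipital group. The adult frontal group had 5 higher and 4 lower, and the adult occipital group 3 and 6. The shares called were 33.3%, 40%, 60% and 60% in the same order of groups, beside 37.0%, 24.7%, 56.1% and 48.2% of all probes. Besides those called in all groups, Sema5b and Sema6c were higher in fetal frontal cortex and both adult groups and Sema7a, the lipid-anchored ligand of plexin-C1, was lower in both adult groups. Sema4c was higher in fetal occipital and adult frontal cortex, Sema4f in fetal occipital and Sema4g in adult frontal cortex. Sema4a was lower in adult occipital cortex. The Sema6a probe NM_018744 was lower in fetal occipital cortex and both adult groups and the other Sema6a probe, AF030430, in adult occipital cortex only. Sema4b and Sema6b were called in no group.

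Sema5b gave 3.07, 2.38, 1.17, 0.15 and 1.39 in fetal frontal cortex, but -0.49, -0.52, 0.31, -0.24 and 2.41 in fetal occipital cortex. The adult frontal values were 2.05, 1.55, 1.84, 1.28 and 1.98, and the adult occipital ones 2.15, 1.41, 1.42, 1.22 and 1.13. All 15 arrays outside fetal occipital cortex lay above 0. The means were 1.63, 0.29, 1.74 and 1.46, each ± 0.35 (SE), with adjusted p of 0.00098, 0.566, 0.00017 and 0.00184. Sema6c averaged 0.98, 0.26, 1.50 and 1.01, each ± 0.27, and was below 0 on 1 fetal frontal and 1 fetal occipital array. Both are bright probes, at percentiles 85.6 and 90.7, and with the brightness trend removed neither passed in any group. With the position trend removed as well, Sema5b passed in fetal frontal (1.11), adult frontal (0.86) and adult occipital cortex (0.93). Sema6c did not pass there (0.13, 0.42 and 0.07). Sema7a averaged -1.42 (adjusted p 0.000616) in adult frontal cortex and -1.01 (0.0132) in its occipital counterpart. With the brightness trend removed these Sema7a means were -0.81 and -0.52 and did not pass. With both trends removed only the adult frontal one passed (-0.87). Sema4g (1.01 in adult frontal cortex, adjusted p 0.00682) lay nearer the middle of the brightness scale and read 1.31 with the trend removed.

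The neuropilin calls were higher for Nrp1 and lower for Nrp2. Nrp1, which binds Sema3a and vascular endothelial growth factor, was higher in both fetal groups, and Nrp2, which binds Sema3f, was lower in fetal frontal cortex and in both adult groups. Nrp1 gave -0.02, 2.01, 1.45, 1.22 and 0.29 in fetal frontal and 1.19, 0.67, 0.28, 1.15 and 1.59 in fetal occipital cortex, with means of 0.99 and 0.97, each ± 0.36 (SE), and adjusted p of 0.03 and 0.0446. In the adult groups it averaged 0.30 and 0.42 and had arrays on both sides of 0. The fetal Nrp1 calls were not robust to leaving out arrays: without frontal replicate 2, 3 or 4, or occipital replicate 1, 1b, 4 or 5, they were lost. Neither passed with the brightness trend removed (0.78 and 0.80) or with the position trend removed (0.62 and 0.41).

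Nrp2 gave -0.17, -0.52, -0.65, -2.51 and -0.91 in fetal frontal and -0.19, -0.43, -0.68, -0.95 and -0.53 in fetal occipital cortex. It gave -0.81, -3.05, -2.17, -2.81 and -0.77 in adult frontal and -0.99, -2.29, -1.00, -1.42 and -1.20 in adult occipital cortex. All 20 arrays were below 0, and the adult arrays tended to be the lower ones, with overlap. The means were -0.95, -0.56, -1.92 and -1.38, each ± 0.33 (SE), with adjusted p of 0.0239, 0.214, 3.27e-05 and 0.00165. Without replicate 4, or without replicate 5, the fetal frontal call was lost, with a highest mean of -0.56. Its adult means without the brightness trend were -1.41 and -0.96 and passed.

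Plexins, the signalling receptors of the semaphorins, had 9 probes for 8 genes, of which 3 were higher and 0 lower in each fetal group. In adult frontal cortex 2 were higher and 1 lower, and in adult occipital cortex 2 were higher and 0 lower. The shares called were 33.3%, 33.3%, 33.3% and 22.2% in the same order of groups, beside 37.0%, 24.7%, 56.1% and 48.2% of all probes. The median brightness percentile of the plexin probes was 67.6. The higher adult calls were those of Plxna1 and Plxna3, and the lower one was Plxnb1, the Sema4d receptor, at -0.87 ± 0.30 (adjusted p 0.0131) in adult frontal cortex. Plxna2 was higher by different probes in the 2 fetal regions. Its probe NM_008882 gave 0.36, 1.35, 1.18, 1.33 and 2.15 in fetal occipital cortex (mean 1.28 ± 0.32, adjusted p 0.00529), whereas probe AK028562 averaged 0.82 (adjusted p 0.0445) in fetal frontal and -0.30 in fetal occipital cortex. Plxnb2, Plxnb3, Plxnc1 and Plxnd1 were called in no group, with means between -0.59 and 0.62.

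Ephrins of class A, anchored to the membrane by lipid, were mostly higher where called. Of 6 probes 16.7% were called in fetal frontal cortex and 33.3% in each of the other groups. Over all probes 37.0% and 24.7% were called in the fetal groups (frontal first) and 56.1% and 48.2% in the adult ones. Besides Efna4, Efna1 was higher in both adult groups, with 1.26, -0.10, 1.60, 0.92 and 1.33 in adult frontal and 0.32, 0.70, 1.41, 1.16 and 0.83 in adult occipital cortex. The Efna1 means were 1.00 (adjusted p 0.00596) and 0.89 (0.0176), each ± 0.30, and 9 of 10 adult arrays were above 0. Without replicate 3, or without replicate 4, the adult occipital call was lost. The Efna5 probe NM_010109 was lower in fetal occipital cortex, where it gave -0.59, -3.36, -0.43, -1.41 and -0.37, a mean of -1.23 ± 0.40 (adjusted p 0.0243). Replicate 1b carried much of it, since without that array the mean was -0.70 and the call was lost, as it was without replicate 4. The other Efna5 probe, NM_207654, averaged -0.19 there.

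The class B ephrins, which span the membrane, behaved differently from each other. Efnb2, the ephrin of arterial endothelium and of many neurons, gave 2.35, 2.30, 0.92, 0.89 and 1.17 in fetal frontal and 0.09, 0.19, 0.48, 0.28 and 1.52 in fetal occipital cortex. Its adult frontal values were 1.61, 1.75, 1.94, 1.23 and 0.86 and its adult occipital values 1.69, 1.07, 1.62, 0.94 and 1.22. All 20 arrays were above 0, with the fetal occipital arrays mostly the lowest. The means were 1.53, 0.51, 1.48 and 1.31, each ± 0.28 (SE), and only the fetal occipital mean did not pass (adjusted p 0.177). This was the brightest member probe, at percentile 99.1, and with the brightness trend removed it passed in no group.

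Efnb3 was higher in adult frontal cortex and Efnb1 lower in both adult groups. Efnb3 gave 1.53, 1.61, 1.73, 1.69 and 1.90 in adult frontal cortex, the tightest group among its values, with a mean of 1.69 ± 0.51 (SE, adjusted p 0.00567), and it passed with the brightness trend removed (1.52). In the fetal groups Efnb3 ran from -2.37 to 2.61 in frontal and from -3.83 to 1.51 in occipital cortex and was called in neither. Efnb1 gave -0.88, -0.86, -2.43, -0.17 and -0.81 in adult frontal and -0.94, -1.30, -0.83, -1.96 and -1.31 in adult occipital cortex. All 10 adult arrays were below 0, the means were -1.03 (adjusted p 0.0437) and -1.27 (0.0178), each ± 0.44, and both passed with the brightness trend removed (-1.26 and -1.46). The adult frontal call of Efnb1 was lost without replicate 1, 2, 3 or 5 and the adult occipital one without replicate 4.

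EphA receptors, the partners of class A ephrins, were mostly lower where called. Of 8 probes 2 were lower in fetal frontal cortex, 0 in its occipital counterpart and 3 in each adult region. The 1 higher call was Epha1 in adult occipital cortex (0.76 ± 0.29, adjusted p 0.03). The shares called were 25%, 0%, 37.5% and 50% in the same order of groups, beside 37.0%, 24.7%, 56.1% and 48.2% of all probes. Epha2, Epha6 and Epha7 made up the lower calls, with Epha7 called in the adult groups (-1.01 and -1.04). With the brightness trend removed Epha7 read -0.19 and -0.39 there and did not pass. Epha3, Epha4, Epha5 and Epha8 were called in no group.

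Epha6 gave -2.73, -2.60, -0.08, -2.38 and -1.22 in fetal frontal cortex, against 0.19, -0.26, -0.43, -0.13 and -1.16 in fetal occipital cortex. The adult frontal arrays gave -0.98, -1.50, -1.80, -1.85 and -2.99, and the adult occipital arrays -1.00, -1.27, -1.79, -1.14 and -0.63. Fetal occipital cortex stood nearest 0, and only there was any array above 0. The means were -1.80, -0.36, -1.82 and -1.17, each ± 0.33 (SE), with adjusted p of 0.000296, 0.435, 4.71e-05 and 0.00483. The fetal frontal mean is a 3.49-fold lower ratio. With the brightness trend removed it was -1.04 and passed, while the adult calls did not.

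Epha2, better known from epithelia and vessels and activated by Efna1, gave -1.17, -0.41, -0.26, -2.80 and -0.55 in fetal frontal cortex. It gave -0.89, -2.38, -2.29, -2.80 and -0.03 in adult frontal and -1.16, -1.78, -0.67, -1.15 and -1.34 in adult occipital cortex. All of these arrays were below 0. The means were -1.04, -1.68 and -1.22, each ± 0.36 (SE), beside -0.21 in fetal occipital cortex, and the fetal frontal call was lost without replicate 1 or 4 (highest mean -0.60). With the brightness trend removed the adult means were -1.47 and -1.04 and passed.

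Of the EphB receptors, Ephb1 alone was called, and it was higher in both fetal groups. It gave 0.64, 1.28, 1.94, 1.45 and 0.61 in fetal frontal and 1.33, 1.28, 0.65, 0.97 and 1.36 in fetal occipital cortex, so all 10 fetal arrays were above 0. The fetal means were 1.18 and 1.12, each ± 0.30 (SE), with adjusted p of 0.00297 and 0.00778, and the adult means 0.32 and 0.43. Neither fetal call passed once the brightness trend was removed. Ephb3, Ephb4 and Ephb6 had means between -0.65 and 0.56.

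Slits and Robos gave few calls. Of the 4 Slit probes only Slit3 (AK019479) was called, lower in adult frontal cortex at -0.74 ± 0.30 (adjusted p 0.0344), and this was lost without replicate 3, 4 or 5. Among the Robos, the Robo2 probe NM_175549 gave -0.34, 2.02, 1.22, 0.87 and 1.25 in fetal frontal cortex, 0.49, 1.03, 1.98, 0.50 and 1.41 in adult frontal and 0.98, 0.86, 0.26, 0.89 and 1.04 in adult occipital cortex. It was above 0 on 14 of these 15 arrays. The means were 1.00, 1.08 and 0.81, each ± 0.30 (SE), with adjusted p of 0.011, 0.00341 and 0.0294. The fetal frontal call was lost without replicate 2 and the adult occipital call without replicate 1, 2, 4 or 5. With the brightness trend removed the means were 0.23, 0.08 and -0.01 and none passed. The other Robo2 probe, DQ533875, averaged between -0.51 and 0.09 and was never called, and the probes differ in brightness, at percentiles 86.4 and 25.2. Robo1 and Robo4, the endothelial Robo, were called in no group.

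At least 1 of the 3 netrin probes was called in every group, 66.7% in each fetal group and 33.3% in each adult group. Over all probes 37.0% and 24.7% were called in the fetal groups (frontal first) and 56.1% and 48.2% in the adult ones. Ntn3 was higher in both fetal groups and in adult frontal cortex and Ntn4, the laminin-related netrin of basement membranes, was lower in both fetal groups and in adult occipital cortex. The founding attractant Ntn1 was called in none, with means between 0.21 and 0.68. Ntn3 gave 0.61, 2.24, 0.35, -0.01 and 0.35 in fetal frontal and 1.31, 1.38, 1.27, 1.03 and 1.15 in fetal occipital cortex. The fetal occipital arrays were closely spaced, and the mean of 1.23 ± 0.28 (SE, adjusted p 0.00288) passed with each array left out and with the brightness trend removed (0.86). The fetal frontal mean of 0.71 (adjusted p 0.0465) fell to 0.32 without replicate 2 and was also lost without replicate 1 or 5. In adult frontal cortex Ntn3 averaged 0.75 (adjusted p 0.0245), which was lost without replicate 2 or 4.

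Ntn4 gave -0.37, -0.41, -0.64, -3.01 and -0.88 in fetal frontal and -0.99, -0.60, -1.56, -2.67 and -2.33 in fetal occipital cortex. The adult occipital arrays gave -0.56, -1.85, -1.04, -2.09 and -1.10, and the adult frontal arrays -0.41, -0.38, -0.80, 0.42 and -0.81. It was below 0 on 19 of 20 arrays. The means were -1.06, -1.63, -0.40 and -1.33 in the usual order of groups, fetal before adult and frontal before occipital, each ± 0.34 (SE), with adjusted p of 0.0154 and 0.00144 in the fetal groups and 0.00269 in adult occipital cortex. The fetal frontal call rested on replicate 4, without which the mean was -0.57 (adjusted p 0.191). The fetal occipital mean was -1.46 and passed once the brightness trend was removed.

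Of the 5 netrin receptor probes 1 was called in fetal frontal cortex (20%), 0 in the fetal occipital group and 4 in each adult group (80%), beside 37.0%, 24.7%, 56.1% and 48.2% of all probes, and only Unc5a differed between the ages. Dcc, which mediates attraction, was higher in both adult groups, where it gave 0.54, 1.06, 1.40, 1.06 and 0.46 in frontal and 0.83, 0.25, 2.10, 2.40 and 0.79 in occipital cortex. All 10 adult arrays were above 0, and the means were 0.90 (adjusted p 0.0102) and 1.27 (0.00135), each ± 0.29 (SE). The adult frontal call was lost without replicate 3, and with the brightness trend removed the adult means were -0.34 and 0.29 and neither passed. Of the repulsive Unc5 receptors, Unc5c was lower in fetal frontal cortex (-1.40 ± 0.32 SE, adjusted p 0.00152) and in both adult groups (-1.59 and -1.17), and Unc5b was lower in both adult groups (-1.33 and -0.98). With the brightness trend removed none of these Unc5b and Unc5c calls passed. Unc5a was higher in both adult groups, and Unc5d was called in none.

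Differences between regions and ages do not carry a fixed dye effect, but a trend with brightness stayed in them. Over all probes the median of fetal occipital minus fetal frontal was 0.25 in the dimmest tertile and -0.35 in the brightest. For adult occipital minus adult frontal these medians were 0.28 and -0.17, and for adult minus fetal -0.36 and 0.30. Between fetal occipital and fetal frontal cortex 0 of 69 members passed the limma test, with 13 at an unadjusted p under 0.05, beside 0.0222% of all probes called. Epha6 came nearest, with an occipital minus frontal difference of 1.44 ± 0.46 (SE, adjusted p 0.148), followed by Sema5b (-1.34 ± 0.50, adjusted p 0.199) and Unc5a (-1.18 ± 0.45, adjusted p 0.206). Between adult occipital and adult frontal cortex 0 members passed and 0.0% of all probes were called, with 1 member at an unadjusted p under 0.05. The 3 with the smallest p were Sema4c (-0.95 ± 0.39), Ntn4 (-0.93 ± 0.48) and Epha3 (0.75 ± 0.41), each with an adjusted p of 0.998. The calls of a gene in 1 region and not in the other are therefore not shown to differ between regions.

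Between the ages, 2 of 69 members differed (2.9%, against 15.6% of all probes), Unc5a and Efna2, and 16 were at an unadjusted p under 0.05. Unc5a, a receptor for netrin-mediated repulsion, gave 1.62, 1.04, 0.42, -0.76 and 0.52 in fetal frontal and -1.47, -0.49, -0.27, 0.41 and -1.27 in fetal occipital cortex. It gave 1.10, 1.76, 0.95, 1.38 and 0.40 in adult frontal and 1.22, 1.22, 2.50, 1.87 and 0.61 in adult occipital cortex. All 10 adult arrays were above 0, and the fetal arrays lay on both sides. The adult means were 1.12 and 1.48 against 0.57 and -0.62 in the fetal groups, each ± 0.32 (SE). Adult minus fetal was 1.33 ± 0.32 (adjusted p 0.00903) over both regions, and it passed with each array left out. By region it was 0.55 ± 0.45 in frontal cortex (adjusted p 0.607) and 2.10 ± 0.45 in occipital cortex (adjusted p 0.019), and the difference between these values was not tested. Taking out the brightness trend left 1.17 and taking out the position trend 0.87, both past the threshold, whereas with both removed it was 0.67 (adjusted p 0.122).

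Efna2, a class A ephrin, went the other way. It gave 0.41, 1.68, 1.30, 0.66 and -0.84 in fetal frontal and -0.32, 0.37, 0.77, 0.30 and -0.24 in fetal occipital cortex, and -0.68, -0.65, -0.03, -1.86 and 0.00 in adult frontal and 0.16, -1.99, -0.91, -0.83 and 0.52 in adult occipital cortex. Most fetal arrays were above 0 and most adult arrays below it, with overlap. Adult minus fetal was -1.04 ± 0.34 (adjusted p 0.0379), although Efna2 was called in no single group (means 0.64, 0.18, -0.64 and -0.61). The call was lost without fetal occipital replicate 3 or 4, fetal frontal replicate 2 or 3, adult frontal replicate 2 or 4, or adult occipital replicate 2, 3 or 4, with values from -1.22 to -0.86 over all 20 arrays left out in turn and a highest adjusted p of 0.0872. Taking out the position trend left -0.69 (adjusted p 0.0959) and taking out both trends -0.67 (adjusted p 0.13), neither past the threshold, whereas with the brightness trend alone removed it was -1.10 (adjusted p 0.0372). By region the difference was -1.29 ± 0.48 in frontal and -0.78 ± 0.48 in occipital cortex, and neither passed (adjusted p 0.241 and 0.298). The number of members called between the ages was 7 without fetal occipital replicate 5, 5 without adult frontal replicate 5 and 4 without fetal frontal replicate 1 or 4. Nrp2 (-0.90, adjusted p 0.0592), Sema3a (-0.93, 0.0615), Slit3 probe NM_011412 (-0.72, 0.0667) and Ephb1 (-0.78, 0.0688) were nearest among the members that did not pass.

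**Figure D5:**
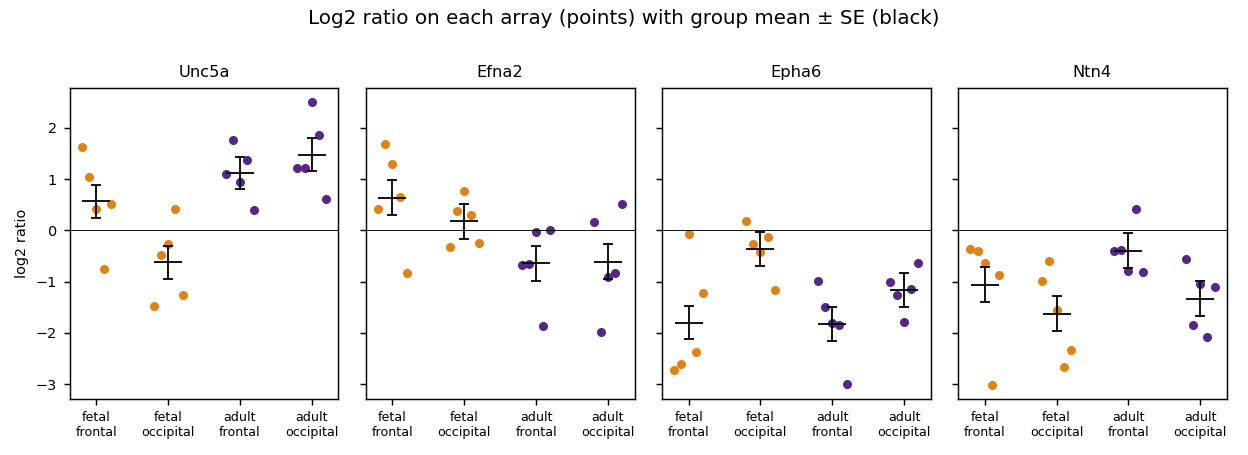
Log2 ratio on each array for Unc5a, Efna2, Epha6 and Ntn4, with fetal arrays in orange, adult arrays in purple and the group mean ± SE in black. The 10 adult Unc5a points are all above 0, and the fetal occipital Epha6 mean lies nearer 0 than the means of the other groups.

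The genes that carry the signal inside the growth cone gave a similar share of calls. Of 77 listed guidance signalling genes (among them adaptors, kinases, cytoskeletal proteins and adhesion partners), 71 were on the array, with 84 probes. In fetal cortex 22 were higher and 9 lower in the frontal region (36.9%) and 13 and 7 in the occipital region (23.8%), and in adult cortex 24 and 11 (41.7%) and 19 and 9 (33.3%), all at or below the shares over all probes given above. L1cam, the adhesion molecule that partners with Nrp1, was higher in the occipital cortex of the fetus (1.10 ± 0.26) and in both adult regions (1.41 and 1.27). Cfl1, cofilin, which severs actin, was lower in both adult groups (-2.13 and -1.76, each ± 0.34). Between the ages 7 were higher and 5 lower in the adult (14.3%, against 15.6% of all probes). Among them were Rgma, a repulsive ligand of neogenin (-1.32 ± 0.32, limma adjusted p 0.00877), and Cntn1, an axonal adhesion molecule (1.79 ± 0.45, adjusted p 0.0116).

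Markers of other cells moved in the same arrays. Of 14 oligodendrocyte probes 3 were higher in the adult minus fetal contrast and 0 lower, with Mbp, myelin basic protein, at 2.91 ± 0.37 (SE, adjusted p 0.000128), and of 12 astrocyte probes 5 were higher and 0 lower, with Gfap at 1.23 ± 0.28. Endothelial markers had 1 higher and 1 lower of 13, microglial markers 0 of 9, and fibroblast and meningeal markers 2 higher of 10 in that contrast. Striatal markers had 2 higher of 9, and Cajal-Retzius or subplate and choroid plexus markers 0 of 9 and 0 of 6. Over all probes 15.6% were called in that contrast. The shares were 21.4% for oligodendrocyte, 41.7% for astrocyte, 15.4% for endothelial, 20% for fibroblast and meningeal and 22.2% for striatal probes. In the groups, fibroblast and meningeal markers went both ways, with 1 of 10 higher and 3 lower in fetal frontal cortex (40%), 0 and 2 in the fetal occipital group (20%), 2 and 3 in adult frontal cortex (50%) and 2 and 4 in the adult occipital group (60%), beside the shares over all probes given above. Ratios give no summed level of a marker list. The part of these cells in the ratios of Unc5a, Efna2 and the other members was not tested. The 922 probes of olfactory and vomeronasal receptors were listed as probes near background and not as cell markers. They were called in 37.1%, 27.1%, 62.7% and 48.9% in the usual order of groups, beside 37.0%, 24.7%, 56.1% and 48.2% of all probes.

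In fetal frontal cortex 19 of 69 members were called, 22 without replicate 1, and 0 with that array turned in sign, which makes it oppose the other 4. In fetal occipital cortex 17 members were called, which fell to 8 without replicate 1b, 9 without replicate 4, 11 without replicate 5 and 5 without replicates 1 and 1b together.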

How the data were processed

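Cortical RNA was hybridised to 2-colour arrays with 5 µg per channel and dendrimer labelling, per the labels' protocols. The authors deposited a table of log2 ratios with a row for each probe. The scanner and normalization behind it were not given in the sources used. The log2 base is read from the values, because many ratios of dim probes fall on quotients of small whole numbers. Values equal to an array's maximum were set to missing, exact 0 values were kept, and each array was centred on its median. A probe was tested if each group had 3 or more values of it, which removed 8. A limma model (limma 3.58.1, R 4.3.3) of 4 group means gave two-sided tests, adjusted by Benjamini-Hochberg over 22567 probes with a threshold of 0.05, and was tested on simulated data.

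Alternatives removed a loess trend of each array's ratios on the derived brightness (span 0.3) or on position (span 0.05, with an inferred row length of 215), or changed scaling, filter, regression or arrays. Symbols came from the platform annotation, and all 69 probes matched RefSeq. Named genes are, in each group, the 5 highest and 5 lowest called members with 1 sign on all arrays, those called in all 4 groups, the largest differences between groups and the 2 with the smallest p per family. Other members are named where they complete a family's count, chosen after their values were seen. Members and lists were chosen with earlier results of these data known. No label says that replicate numbers pair arrays across groups. Between groups, same-numbered pairs had a median correlation of deviations of 0.0186 (n = 27, from -0.132 to 0.376) and other pairs -0.00432 (n = 123). These pairs mix regions and ages, so the medians cannot show whether regions of the same age shared animals. No intensities were used, so the precision given here rests on the number of arrays and on the spread of their ratios, pooled over the groups.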

Additional observations from a re-analysis of the deposited data

Results flagged for a closer look

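The group means of the named probes were checked for a single array far from the other 4, in 54 checks of which chance alone flags about 1 in 20. Sema5b read 2.15 on adult occipital replicate 1, where the others ran from 1.13 to 1.42. Efna4 read -0.10 on fetal occipital replicate 1 against 0.72 to 1.04, and 1.82 on adult occipital replicate 3 against 0.81 to 1.04. On fetal frontal replicate 4 the Sema6d probe AK052232 read -3.56, with the others between -1.34 and -0.78, and Ntn4 read -3.01, with the others between -0.88 and -0.37. Unc5c read -0.48 on adult frontal replicate 1, while the others lay between -2.02 and -1.63.

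The ratio differed between the ages for Unc5a, by 1.33 in adult minus fetal cortex over both regions (0.55 in frontal cortex, which did not pass alone, and 2.10 in occipital cortex). For Efna2 it differed by -1.04, and each passed the limma threshold for the difference itself. With both the brightness and position trends removed neither difference passed. Age and time since the last injection cannot be told apart in them.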

How the results depend on the processing

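Removing the brightness trend lowered the counts of called members in all 4 groups. They went to 6 and 9 in the fetal regions (frontal first) and to 14 and 13 in the adult regions, whereas the count between the ages rose from 2 to 6. Taking out position too gave 7, 7, 18, 16 and 2. Of 83 named calls 48 no longer passed with the brightness trend removed and another 8 turned sign. Reversed values with the brightness trend removed were, in adult frontal cortex, 0.17 for Sema6a (NM_018744), 0.12 for Sema3c, -0.34 for Dcc, 0.07 for Sema5a and -0.08 for Sema4c, in adult occipital cortex 0.12 for Sema3c and -0.01 for Robo2 (NM_175549), and in fetal frontal cortex -0.02 for Plxna3. With both trends removed they were, in adult frontal cortex, -0.19 for Efnb2, 0.14 for Sema3c, -0.12 for Dcc, 0.17 for Sema5a and -0.25 for Sema4c, and 0.10 for Sema3c in adult occipital cortex. The cause was not tested.

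With fetal frontal replicate 1 turned in sign 0 members were called in fetal frontal cortex and 5 between the ages, since that array then opposes the others. Robust regression called 29 in fetal frontal cortex, 3 between the fetal regions and 16 between the ages. Fetal occipital cortex had 6 with its own arrays only, and without replicates 1 and 1b it had 5, with 1 between the ages. Quantile normalization gave 4 and array weights 7 between the ages. Leaving out single arrays gave 14 to 22 (frontal) and 8 to 16 (occipital) in the fetus and 27 to 35 and 20 to 30 in the adult. Between the fetal regions it gave 0 to 1 (1 without fetal occipital replicate 5), between the adult regions 0, and between the ages 1 to 7. With the replicate block, the number of the title as a random block with a correlation of 0.0203, the counts stayed at 19, 17, 31, 30, 0, 0 and 2 and all 83 named calls were kept. Signal over background is unknown for every probe.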
